A study of Homo sapiens with 12 samples.

Results

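The 39 human HOX genes were followed in nascent transcription data from T47D cells, an estrogen receptor-positive luminal breast cancer line. Members were the rows of the count table whose symbol is HOXA, HOXB, HOXC or HOXD followed by a number alone, and they made up 39 of 59410 genes. The clusters contributed 11 HOXA, 10 HOXB, 9 HOXC and 9 HOXD genes. PRO-seq labels the RNA that engaged RNA polymerases are extending, so its counts follow transcription in progress and not accumulated RNA.

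The 12 libraries formed 6 groups of 2. In hormone-starved cells the groups were 1 nM estradiol and vehicle (0.1% DMSO by volume). In complete medium they were fulvestrant, raloxifene and tamoxifen, each at 100 nM, and vehicle at the same DMSO concentration. Treatment lasted 1 h after 3 days in medium, every group was the same unmodified cell line, and the libraries of each group carry the numbers 3 and 4. The sources used here do not name the solvent given with estradiol. Estradiol is the main ligand of the estrogen receptor. Fulvestrant is a steroid receptor antagonist derived from estradiol, whereas raloxifene and tamoxifen are non-steroidal receptor modulators built on a benzothiophene and a triphenylethylene core. Whether both libraries of a group are separate cultures is not stated, so every p-value rests on the spread between libraries, and that spread may be technical. With a single cell line in bulk, a change in the number of transcribing cells and a change in transcription per cell cannot be told apart.

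HOX genes encode homeodomain transcription factors that assign position along the body axis. They lie in 4 clusters on 4 chromosomes, and genes with the same number in different clusters, the paralogue groups, descend from a common ancestor. Within a cluster the low-numbered genes are used in anterior tissue and the high-numbered ones in posterior tissue and limbs. Differentiated cells keep a subset of the genes active, Polycomb proteins keep the others silent, and TALE homeodomain proteins of the PBX, MEIS and PKNOX families act as their DNA-binding partners.

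Library totals ran from 3682311 to 7856803 counts, and the HOX genes together received 2352 to 5106 counts in each library, 0.0682% of all counts. All 12 luminal breast markers examined, among them ESR1, GATA3 and KRT8, were above the filter on low counts and summed to 4387 to 6217 CPM (counts scaled to library size, here with TMM factors). Of 19 basal, stromal, endothelial and blood markers 8 passed that filter and 11 did not, so the list was not wholly silent. It summed to 53.4 to 68.4 CPM, and 1 member, HBB, had 0 counts over all 12 libraries. No member of that second list passed the test in edgeR's quasi-likelihood fit in any of the 5 comparisons with a vehicle, at most 2 had an unadjusted p under 0.05 in one of them, and DESeq2 called none. Of the luminal list 7 genes rose and 1 fell with estradiol, against 5.04% higher and 3.74% lower of all tested genes, and 2 rose and 4 fell with starvation, against 9.1% and 9.67%.

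T47D cells transcribed the HOXC cluster throughout, much of HOXB, little of HOXA and almost none of HOXD. A gene was taken as detected where it passed edgeR's filter on low counts over the 12 libraries. By that definition all 9 HOXC genes were detected, 7 of 10 HOXB genes, 4 of 11 HOXA genes and 2 of 9 HOXD genes, 22 of 39 together. The HOXC cluster held 81.3% of all HOX counts on average (80.2% to 83.2% over the libraries), HOXB 15.5% (14.1% to 16.9%), HOXA 2.63% (1.90% to 3.23%) and HOXD 0.544% (0.430% to 0.689%). With counts divided by the length of each gene span the average shares were 68.6% for HOXC, 27.8% for HOXB, 2.70% for HOXA and 0.966% for HOXD, in the same order.

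**Figure D1:**
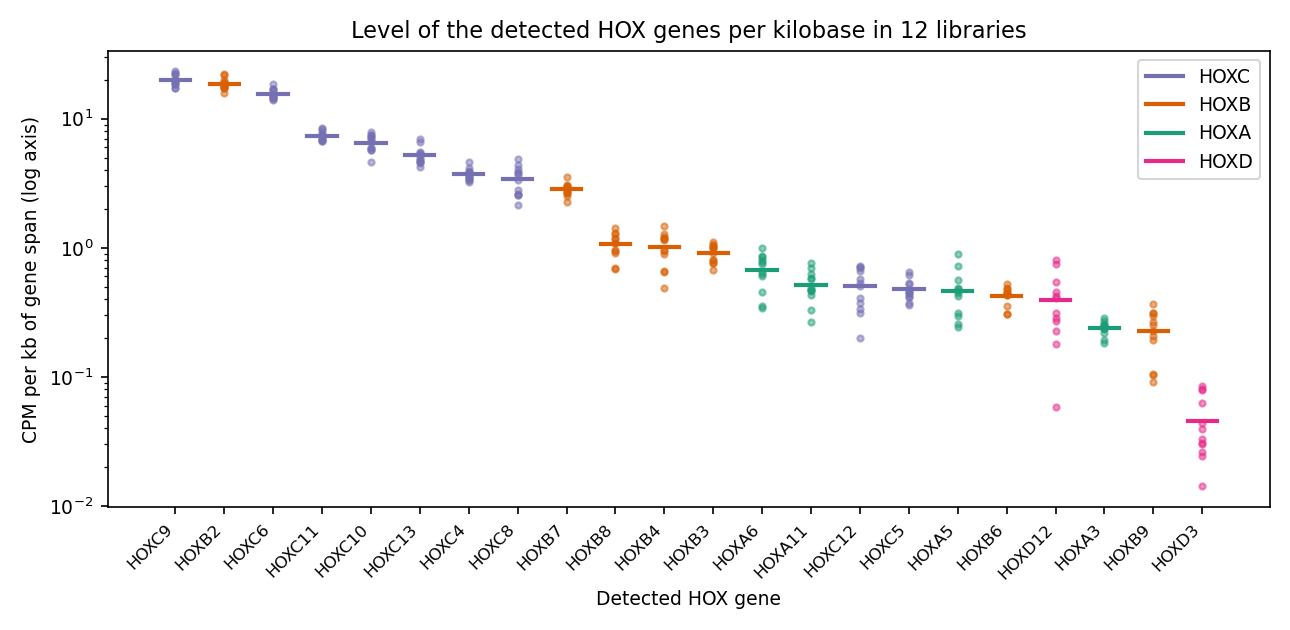
Level of each of the 22 detected HOX genes in CPM per kilobase of gene span (logarithmic axis), ordered by the mean; points are the 12 libraries, lines are means and colours are clusters. HOXC9, HOXB2 and HOXC6 have the highest means, 20.0, 18.7 and 15.6, and HOXD3 the lowest, 0.0459.

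Levels of different genes are given per kilobase of the RefSeq gene span (GRCh38.p14). The counted part of each gene is not known, and this scale can place a short gene above a longer one with more counts. Over the 12 libraries HOXC6 had 16043 counts and HOXC4 10760, against 4690 for HOXC9 and 3388 for HOXB2. The order below therefore holds for this scale only. HOXC9 had the highest level, 20.0 ± 1.99 CPM per kb (SD over 12 libraries), which placed it at the 98.0th percentile of the 18494 tested genes with a length, whose median was 1.03. HOXB2 followed at 18.7 ± 1.89 CPM per kb, and the ranges of both genes overlapped, 17.3 to 23.2 for HOXC9 and 15.9 to 22.3 for HOXB2. HOXC6 came next at 15.6 ± 1.44 CPM per kb, again with a range that overlapped that of HOXB2. A wide step separated these 3 genes from HOXC11 at 7.41 ± 0.616, HOXC10 at 6.53 ± 0.957 and HOXC13 at 5.24 ± 0.822 CPM per kb. HOXC4 at 3.71 ± 0.390, HOXC8 at 3.40 ± 0.858 and HOXB7 at 2.84 ± 0.327 CPM per kb came after them. From HOXC11 down to HOXB7 the range of each gene overlapped that of the next. These ranges pool the 6 groups and do not show the order of the genes within a library.

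The other 13 detected genes lay between 0.0459 CPM per kb for HOXD3 and 1.06 CPM per kb for HOXB8. Among these were HOXC5 and HOXC12, with the lowest HOXC values, at 0.476 and 0.503 CPM per kb. HOXC5 lies inside HOXC4, so its value depends on how reads were split between overlapping genes, which is not known. HOXC12 lies between HOXC11 and HOXC13 on chromosome 12, and its level was far below those of both neighbours. Within HOXB, a gene of the anterior end, HOXB2, which acts in hindbrain segmentation in the mouse, had the highest level of its cluster. Within HOXC the highest level per kilobase belonged to HOXC9, which takes part in trunk patterning.

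The 17 genes that did not pass the filter had at most 9 counts in any library and at most 63 counts over all 12, reached by HOXD11. Among them were HOXA4, HOXA9, HOXA10 and HOXA13, HOXB5 and HOXB13, and HOXD4, HOXD9, HOXD10, HOXD11 and HOXD13. Per length they reached at most 0.201 CPM per kb, for HOXB5. HOXD3, which passed the filter with 66 counts over all 12 libraries, lay below that at 0.0459 CPM per kb, so the detected and undetected genes overlap in level. HOXD4 had 0 counts in every library, and 0 of 74309496 counts allows a level of up to 0.0404 CPM (3 counts over all libraries, counting error only).

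Gene spans in the HOX clusters overlap, and the sources used here do not state how the authors' counting shared reads among overlapping genes or whether it used strand. By RefSeq coordinates 10 members lie wholly within other genes, 13 overlap them in part and 16 overlap none. HOXC4 (chromosome 12, 54016888 to 54056030), HOXC5 (54016888 to 54035361) and HOXC6 (54016888 to 54030823) begin at the same base, so HOXC5 and HOXC6 lie inside HOXC4 and their split of reads is uncertain. HOXB4 lies inside HOXB3, and HOXA4, HOXA5 and HOXA6 lie inside HOXA3. The antisense gene HOTAIR overlaps HOXC11, HOXB-AS1 overlaps HOXB2 and HOXB3, and HOXB-AS3 covers HOXB5 and HOXB6, so the sense and antisense parts of those counts cannot be told apart. HOXC8, HOXC9, HOXB7, HOXB8, HOXB9, HOXA11 and HOXD12 are the detected members that overlap no other gene. Over members without overlap alone, HOXC held 79.1% of the counts, HOXB 16.0%, HOXA 2.50% and HOXD 2.42%.

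Paralogue groups with a member in every cluster show the spread among clusters. In group 9 the levels were 20.0 CPM per kb for HOXC9, 0.228 for HOXB9, 0.144 for HOXA9 and 0.0798 for HOXD9. In group 4, over the 12 libraries HOXC4 had 10760 counts, HOXB4 207, HOXA4 13 and HOXD4 0, which is 3.71, 1.01, 0.0830 and 0 CPM per kb. HOXC4 takes part in axial patterning and in antibody class switching in B cells. The RefSeq promoter windows that were matched for this group are printed because they belong to genes at opposite ends of that range. Each line gives the 250 bases before the annotated start, 5′ to 3′ on the gene's strand, on GRCh38.p14. Capitals mark CCAAT, the core of the NF-Y element, or GGTCA, one arm of the estrogen response element, each searched on both strands, so that CCAAT on the other strand reads ATTGG. Their positions are chr12:54016638-54016887 on the plus strand for HOXC4 and HOXC5, which share a start, chr7:27130758-27131007 on the minus strand for HOXA4 and chr2:176151300-176151549 on the plus strand for HOXD4.
HOXC4 and HOXC5: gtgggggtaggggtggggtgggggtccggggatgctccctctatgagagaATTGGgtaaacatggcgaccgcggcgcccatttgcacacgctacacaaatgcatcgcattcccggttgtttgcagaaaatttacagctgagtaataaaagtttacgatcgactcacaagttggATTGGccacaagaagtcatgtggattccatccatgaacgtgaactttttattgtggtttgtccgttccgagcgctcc
HOXA4: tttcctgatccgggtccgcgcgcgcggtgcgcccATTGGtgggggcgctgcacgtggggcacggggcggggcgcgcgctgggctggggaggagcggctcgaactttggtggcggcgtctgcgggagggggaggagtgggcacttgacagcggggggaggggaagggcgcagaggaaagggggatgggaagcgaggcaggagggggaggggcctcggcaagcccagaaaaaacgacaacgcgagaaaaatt
HOXD4: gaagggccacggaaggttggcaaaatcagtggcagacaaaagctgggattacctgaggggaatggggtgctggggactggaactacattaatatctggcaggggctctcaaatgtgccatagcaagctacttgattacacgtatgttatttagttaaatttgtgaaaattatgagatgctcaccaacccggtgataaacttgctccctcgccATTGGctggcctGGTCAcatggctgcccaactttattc

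In the bases printed, the transcribed HOXC4 had 2 CCAAT elements and no GGTCA, HOXA4 had 1 CCAAT and no GGTCA, and HOXD4 had 1 CCAAT and 1 GGTCA. The window of HOXA4 held 1 GGTCA in the bases past the start, which are not printed. In the 300-base windows, which run 50 bases past the start, CpG dinucleotides numbered 15 for HOXC4, 27 for HOXA4 and 4 for HOXD4, against a median of 14 over 34943 RefSeq promoter windows. Windows were matched for 20 of the 39 members, 26 windows in all, of which 7 belong to HOXA3. CCAAT was present in 17 of the 26 (65.4%), against 34.6% of all windows. GGTCA was present in 11 of them (42.3%), against 37.4% of all windows. The full palindrome GGTCANNNTGACC, which contains GGTCA, was in 0 of the HOX windows and in 0.0572% of all windows. These matches describe the letters of the windows and identify no bound site.

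MicroRNA genes lie in all 4 clusters. MIR196A2 in HOXC, MIR196A1 in HOXB and MIR196B in HOXA give mature microRNAs with a common seed. They are printed here from RefSeq, with the seed (bases 2 to 8) in capitals, because the 3 loci differ in counts and not in seed.
hsa-miR-196a-5p: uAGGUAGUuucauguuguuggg
hsa-miR-196b-5p: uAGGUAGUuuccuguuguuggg
MIR196A2 had 53 counts over the 12 libraries, MIR196A1 had 1 and MIR196B had 0. In the same counts MIR615, which lies within HOXC4 and HOXC5, had 20, MIR10A in HOXB had 4 and MIR10B in HOXD had 0. None of these 6 short genes passed the filter, and nascent reads over them cannot be told from transcription of the genes around them.

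HOXC summed to 614 ± 25.7 CPM in starved cells given estradiol and 545 ± 7.11 in starved vehicle cells, and to 538 ± 15.4 with fulvestrant, 525 ± 8.38 with raloxifene, 523 ± 40.4 with tamoxifen and 599.8 ± 23.1 in complete vehicle (mean ± SD, n = 2 each). HOXB summed to 124 ± 3.07 CPM with estradiol and 112 ± 2.96 in starved vehicle, and to 105 ± 0.401 with fulvestrant, 98.5 ± 7.38 with raloxifene, 90.6 ± 6.63 with tamoxifen and 107 ± 3.99 in complete vehicle. Over all libraries HOXA ran from 14.6 to 20.9 CPM and HOXD from 2.85 to 5.11 CPM. The members of each cluster were then replaced by their sum, which gave 4 sums. In the main fit, without a block on library number, edgeR's quasi-likelihood test called no sum in any of the 5 comparisons with a vehicle. The settings under which the HOXC sum passed are given at the end. The HOXC sum had the smallest adjusted p, 0.060 for estradiol against starved vehicle, where its log2 fold change was 0.17 ± 0.054 (SE). Against complete vehicle the HOXC sum had log2 fold changes of -0.16 with fulvestrant, -0.19 with raloxifene and -0.20 with tamoxifen, with adjusted p of 0.31, 0.17 and 0.39. DESeq2 was not run on the sums, and 6 of the 20 sum tests had an unadjusted p under 0.05 in edgeR's test. The HOXC sum had 0.0056 with estradiol, 0.019 with starvation, 0.0074 with fulvestrant, 0.0023 with raloxifene and 0.0016 with tamoxifen. The HOXB sum had 0.0038 with tamoxifen.

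**Figure D2:**
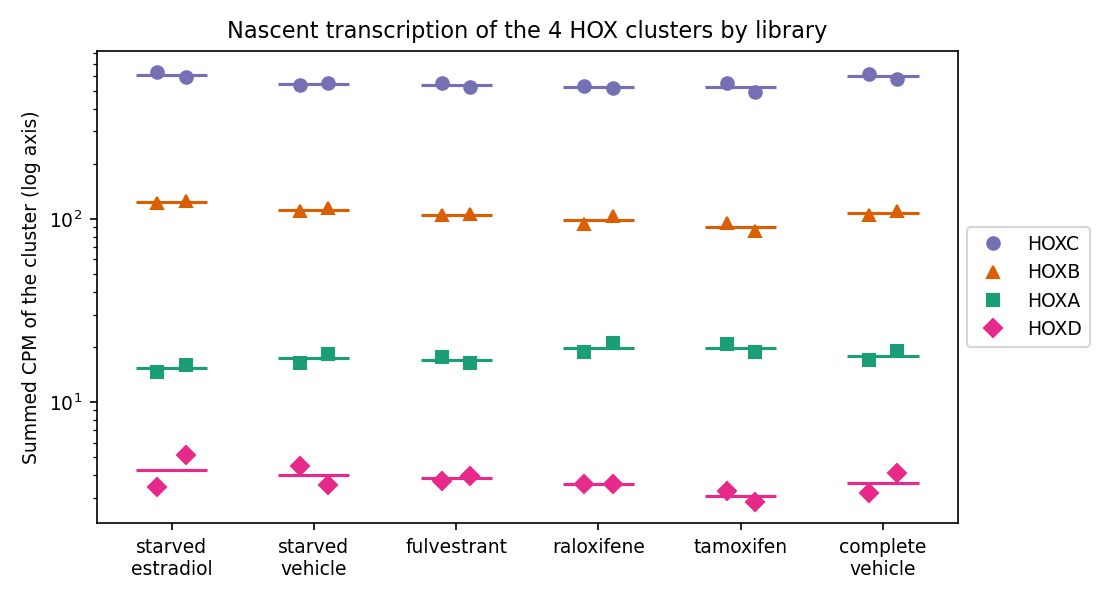
Summed TMM-scaled CPM of each HOX cluster (logarithmic axis) in each of the 12 libraries, by group; points are libraries and lines group means. HOXC lies between 494 and 632 CPM, HOXB between 85.9 and 126, HOXA between 14.6 and 20.9 and HOXD between 2.85 and 5.11, so the order of the clusters is the same in every library.

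Estradiol was compared with vehicle in starved cells to find which members respond within 1 h. At a Benjamini-Hochberg adjusted p below 0.05 over 23375 genes, 4 of the 22 tested members passed edgeR's quasi-likelihood test, against 8.77% of all tested genes. Of the members 3 were higher and 1 lower, against 5.04% and 3.74% of all tested genes. All 4 are HOXC genes. HOXC8, HOXC4 and HOXC6 rose and HOXC13 fell. The median log2 fold change was 0.08 over the 22 members and -0.01 over all tested genes.

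HOXC8, which in the mouse acts in thoracic patterning and in the placement of mammary placodes, had 15.4 and 16.6 CPM in the estradiol libraries, against 9.75 and 8.19 CPM in the starved vehicle libraries. Both estradiol libraries were above both vehicle libraries, and the log2 fold change was 0.83 ± 0.17 (SE, adjusted p = 0.0027, edgeR). Without starved vehicle library 4 its adjusted p was 0.057, and over 9 alternative fits it ran from 0.00019 to that value. HOXC8 overlaps no other RefSeq gene.

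HOXC4 had 179.6 and 163 CPM in the estradiol libraries, against 135 and 131 CPM in the starved vehicle libraries. The groups did not overlap, and the log2 fold change was 0.37 ± 0.076 (SE, adjusted p = 0.0026, edgeR). Without estradiol library 3, the higher one, the adjusted p was 0.077, the upper end of a range from 9.0e-07 over 9 alternative fits. HOXC6, which in the mouse takes part in mammary gland growth, had 239 and 232 CPM in the estradiol libraries, against 199 and 204 CPM in the starved vehicle libraries. Its log2 fold change was 0.22 ± 0.061 (SE, adjusted p = 0.023, edgeR), and it passed in 3 of 9 alternative fits. HOXC5, which shares its start with both, had a log2 fold change of 0.47 (95% interval 0.09 to 0.85) at an adjusted p of 0.17. All 3 share the same stretch of chromosome 12, so their values are not 3 separate observations.

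HOXC13, which controls hair and nail keratins, lies at the opposite end of the cluster and had 41.8 and 42.7 CPM in the estradiol libraries, against 50.7 and 53.9 CPM in the starved vehicle libraries. It was lower in both estradiol libraries, with a log2 fold change of -0.31 ± 0.090 (SE, adjusted p = 0.036, edgeR), and passed in 3 of 9 alternative fits. The genes between HOXC8 and HOXC13 did not pass. HOXC9 had 73.7 and 59.3 CPM with estradiol, against 62.0 and 69.1 CPM in starved vehicle, so the groups overlapped and the 95% interval of its log2 fold change ran from -0.15 to 0.21. HOXC10, HOXC11 and HOXC12 had log2 fold changes of -0.07, -0.14 and -0.04.

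**Figure D3:**
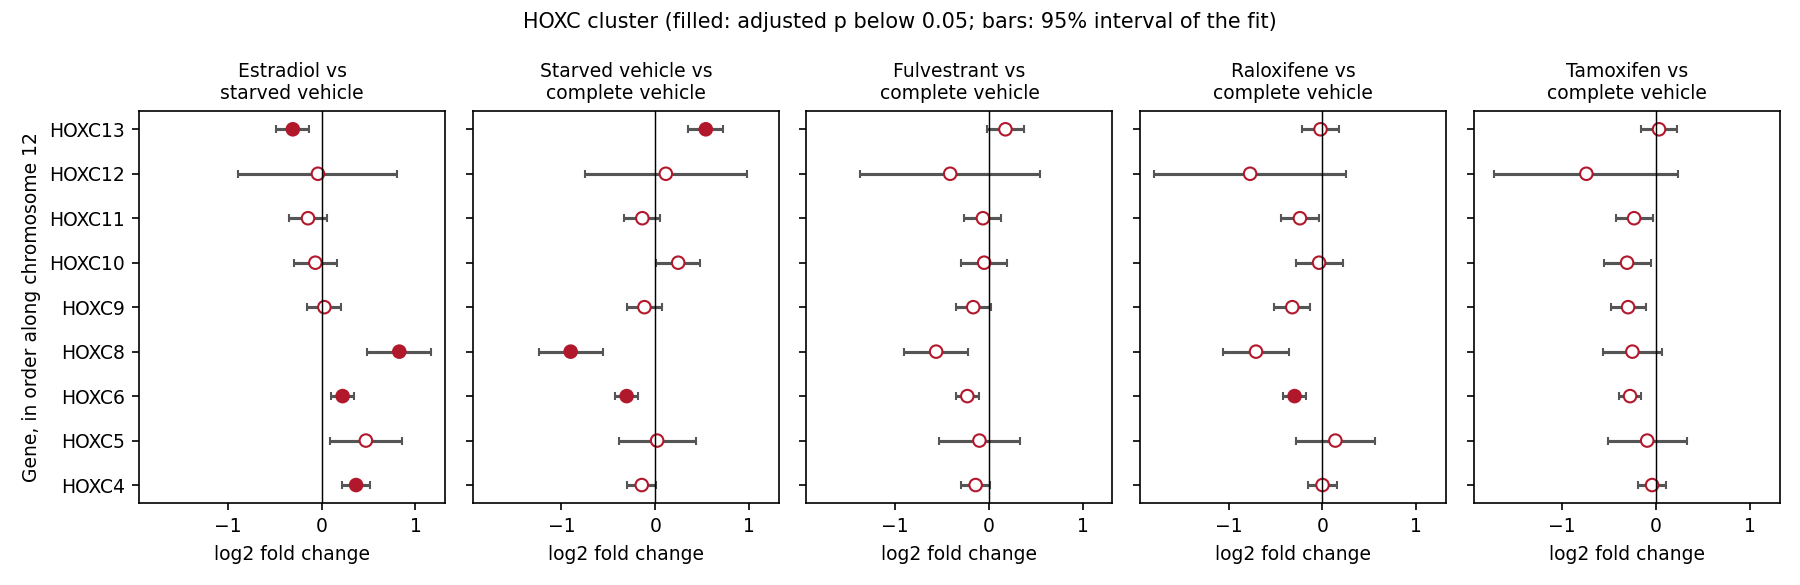
Log2 fold change of the 9 HOXC genes in the 5 comparisons with a vehicle, in order along chromosome 12; bars are 95% intervals of the edgeR fit and filled points have an adjusted p below 0.05. With estradiol HOXC4, HOXC6 and HOXC8 lie above 0 and HOXC13 below it, and HOXC8 has the highest value, 0.83.

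Outside HOXC no member passed with estradiol. HOXB2 had 53.8 and 54.8 CPM with estradiol, against 46.3 and 47.4 CPM in starved vehicle, a log2 fold change of 0.21 at an adjusted p of 0.16. HOXB7, which has been linked to breast cancer progression, had 11.0 and 11.5 CPM, against 8.53 and 10.1 CPM in starved vehicle, and its interval ran from -0.07 to 0.63. The strongest HOXA genes per length were HOXA6 and HOXA11. HOXA6 had 1.56 and 2.37 CPM with estradiol, against 2.03 and 2.05 CPM in starved vehicle. HOXA11, a gene of the female reproductive tract and the limb, had 2.33 and 2.37 CPM with estradiol, against 1.08 and 1.90 CPM in starved vehicle, and its log2 fold change of 0.66 had an interval from -0.23 to 1.55. HOXA6 and HOXA11 had 5 to 23 counts a library.

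Starved vehicle was compared with complete vehicle to give the state from which estradiol started. These groups differ in medium, and whether they were handled together is not stated, so medium and handling cannot be told apart. Of the 22 tested members 4 passed edgeR's test, against 18.8% of all tested genes. Of the members 2 were higher and 2 lower, against 9.1% and 9.67% of all tested genes. HOXC13 and HOXD12 were higher in starved cells, and HOXC6 and HOXC8 were lower. The median log2 fold change was 0.03 over the members and 0.01 over all tested genes.

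HOXC13 had 50.7 and 53.9 CPM in starved vehicle, against 36.4 and 35.4 CPM in complete vehicle, and its log2 fold change was 0.54 ± 0.094 (SE, adjusted p = 0.00025, edgeR). HOXC8 had 9.75 and 8.19 CPM in starved vehicle, against 18.6 and 14.7 CPM in complete vehicle, a log2 fold change of -0.90 ± 0.17 (SE, adjusted p = 0.00068). Both genes passed in 9 of 9 alternative fits. HOXC6 had 199 and 204 CPM in starved vehicle, against 259 and 238 CPM in complete vehicle, a log2 fold change of -0.30 ± 0.061 (SE, adjusted p = 0.0011), and its adjusted p was 0.053 without complete vehicle library 3, in a range over 9 alternative fits that began at 5.6e-06. HOXC4 did not pass, with 135 and 131 CPM in starved vehicle, against 154 and 138 CPM in complete vehicle, and an interval from -0.30 to 0.01.

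HOXD12, a limb patterning gene, had 2.03 and 1.46 CPM in starved vehicle, against 0.159 and 0.611 CPM in complete vehicle. That is 1 to 15 counts a library over the whole series, and its log2 fold change of 2.23 ± 0.87 (SE) had an adjusted p of 0.041. It passed in 4 of 8 alternative fits. The complete vehicle libraries held 1 and 3 counts, so it passed the filter on low counts through libraries of other groups. Its highest counts were 15 in starved vehicle library 3 and 12 in fulvestrant library 4. The group called higher thus helped it past the filter, and its place in the count of members called with starvation rests partly on that. HOXD3, the other detected HOXD gene, had 0.677 and 0.292 CPM in starved vehicle, against 1.75 and 0.815 CPM in complete vehicle, with an interval from -2.88 to 0.08.

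The estradiol and starvation comparisons share the starved vehicle libraries, so a value that is off in those libraries moves both, in opposite directions. Set side by side, HOXC8 averaged 16.0 CPM with estradiol, 8.97 in starved vehicle and 16.6 in complete vehicle. HOXC6 averaged 235, 202 and 248 CPM in the same order, and HOXC13 averaged 42.3, 52.3 and 35.9 CPM.

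**Figure D4:**
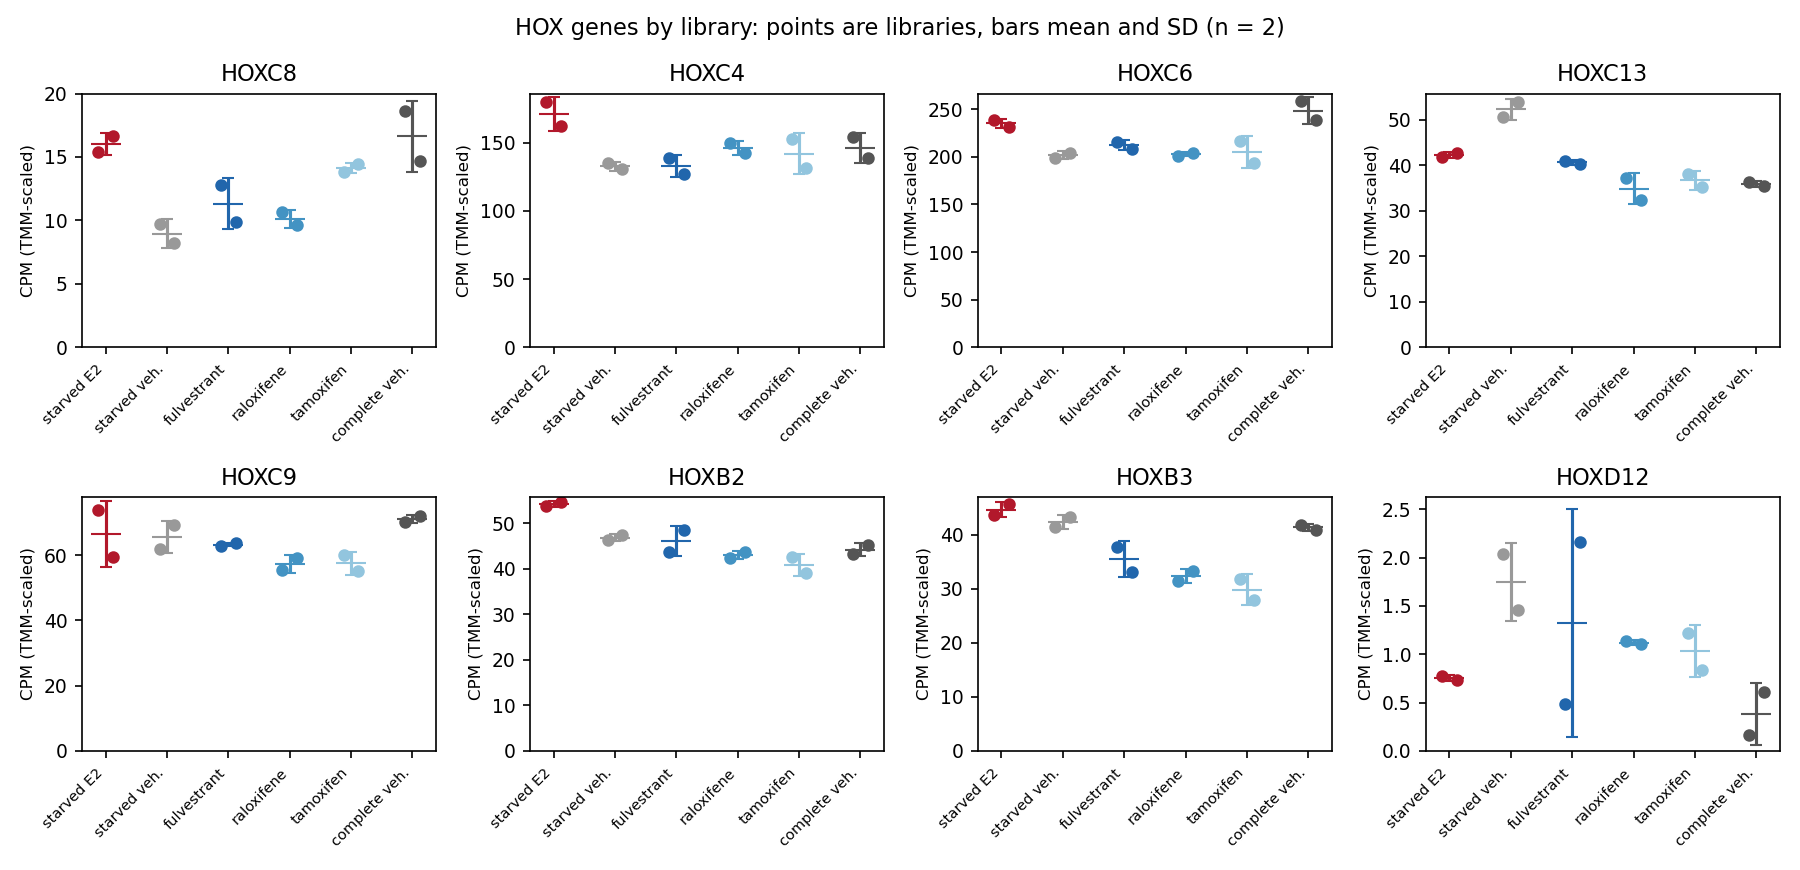
TMM-scaled CPM of 8 HOX genes in each library by group (linear axes from 0); points are libraries and bars mean and SD, n = 2. HOXC8 is at 8.19 and 9.75 CPM in starved vehicle, and HOXB3 and HOXC6 are lower in the 6 drug libraries than in both complete vehicle libraries.

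In complete medium each drug was compared with vehicle, and these comparisons share the complete vehicle libraries. Calls for the drugs are those of the main fit, without a block on library number, and calls with that block are given at the end. Fulvestrant gave 0 of 22 members past edgeR's test, against 1.16% of all tested genes, with 4 at an unadjusted p under 0.05 and 0 called by DESeq2. Raloxifene gave 1 of 22, against 0.569% of all tested genes. Tamoxifen gave 0 of 22, against 0.0513% of all tested genes, with 5 at an unadjusted p under 0.05 and 0 called by DESeq2. The median log2 fold change of the members was -0.11 with fulvestrant, -0.04 with raloxifene and -0.23 with tamoxifen, and 0.01, 0.01 and 0.00 over all tested genes.

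HOXC6 was the member that passed with raloxifene. It had 201 and 204 CPM with raloxifene, against 259 and 238 CPM in complete vehicle, and its log2 fold change was -0.30 ± 0.063 (SE, adjusted p = 0.030, edgeR). DESeq2 did not call it, and leaving out any 1 of the 4 libraries brought its adjusted p above 0.05. It passed in 4 of 9 alternative fits, over which the adjusted p ran from 0.00017 to 0.49. With fulvestrant HOXC6 had 216 and 209 CPM (log2 fold change -0.23, adjusted p = 0.098, edgeR), and with tamoxifen 217 and 193 CPM (-0.28, adjusted p = 0.17). All 6 drug libraries were below both complete vehicle libraries.

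HOXC8 had 12.8 and 9.89 CPM with fulvestrant, 10.6 and 9.63 with raloxifene and 13.8 and 14.4 with tamoxifen, against 18.6 and 14.7 CPM in complete vehicle. Its log2 fold changes were -0.56, -0.71 and -0.25, with adjusted p of 0.20, 0.087 and 0.84 in edgeR's test. Without complete vehicle library 3 they were -0.37, -0.52 and -0.06, and without complete vehicle library 4 -0.71, -0.86 and -0.40. HOXC9 had 62.8 and 63.6 CPM with fulvestrant, 55.3 and 59.2 with raloxifene and 60.0 and 55.0 with tamoxifen, against 70.1 and 71.9 CPM in complete vehicle, and did not pass with any drug. HOXC4 and HOXC13 stayed close to vehicle with raloxifene, with 95% intervals of their log2 fold changes from -0.15 to 0.16 and from -0.22 to 0.18.

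Among the HOXB genes, HOXB3, which acts in hindbrain segmentation, had 37.8 and 33.1 CPM with fulvestrant, 31.5 and 33.3 with raloxifene and 31.9 and 27.9 with tamoxifen, against 41.8 and 40.9 CPM in complete vehicle. All 6 drug libraries were below both vehicle libraries. The log2 fold changes of HOXB3 were -0.22, -0.36 and -0.47, with adjusted p of 0.65, 0.18 and 0.17, so none passed. HOXB3 was named for this after its values were seen. HOXB2, which neighbours it, had log2 fold changes of 0.06, -0.04 and -0.11, with 95% intervals that all lay within 0.30 of 0 on the log2 scale.

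Given at one dose for one time, the drugs were also set against each other in 3 pairs. No member passed edgeR's test or DESeq2 in any pair. The share of all tested genes called was 0.103% for fulvestrant against raloxifene, 0.462% for fulvestrant against tamoxifen and 0.00428% for raloxifene against tamoxifen, and 0, 1 and 2 members had an unadjusted p under 0.05. For HOXC6 the difference was 0.07 on the log2 scale for fulvestrant over raloxifene (95% interval -0.06 to 0.19), 0.05 for fulvestrant over tamoxifen (-0.07 to 0.17) and -0.02 for raloxifene over tamoxifen (-0.14 to 0.10). For HOXC8 raloxifene over tamoxifen differed by -0.46 (-0.81 to -0.11, adjusted p = 1.00, edgeR). At this dose and time the 95% intervals of HOXC6 for fulvestrant over raloxifene and tamoxifen reached at most 0.19 from 0. Those for HOXC8 are wider.

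Over all 6 groups together, 7 of the 22 members passed edgeR's test for any difference, against 25.1% of all tested genes. They were HOXB2, HOXB3, HOXC4, HOXC6, HOXC8, HOXC10 and HOXC13, and DESeq2 called 5 of them, without HOXB2 and HOXC10. In edgeR HOXC10 did not pass without starved vehicle library 4 or tamoxifen library 4, HOXB2 without either estradiol library, and HOXC4 without estradiol library 3. HOXC10, which acts in lumbar patterning, had 38.3 and 36.9 CPM with estradiol and 38.3 and 40.5 in starved vehicle, and 34.9 and 29.1 with fulvestrant, 33.7 and 30.3 with raloxifene, 29.5 and 23.7 with tamoxifen and 30.7 and 36.2 in complete vehicle. It was higher in every starved library than in every library grown in complete medium, and it was named after its values were seen.

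Genes that work with the HOX proteins were counted from lists of known partners and regulators. All 9 TALE cofactors were tested, and with estradiol 2 fell and 0 rose, against 3.74% lower and 5.04% higher of all tested genes. PBX3, a DNA-binding partner of HOX proteins, had 175 and 179.7 CPM with estradiol, against 199 and 219.5 CPM in starved vehicle, and fell by 0.24 on the log2 scale (SE 0.061, adjusted p = 0.014, edgeR). With starvation MEIS2 and PKNOX2 rose, by log2 fold changes of 0.41 and 1.07, and PBX3 fell by 0.34, so 3 of 9 were called against 18.8% of all tested genes. DESeq2 called 1 of the 9 with estradiol and 3 with starvation, beside 1121 and 2381 of all 23375 tested genes. No TALE gene passed with a drug in edgeR or DESeq2, and 0, 2 and 0 had an unadjusted p under 0.05 with fulvestrant, raloxifene and tamoxifen. The list's median log2 fold change was -0.19 with estradiol and 0.07 with starvation, beside -0.01 and 0.01 over all tested genes.

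Of 30 Polycomb and trithorax regulators, the proteins that hold HOX genes silent or active, 28 were tested. With estradiol 2 rose, the insulator protein CTCF (0.26 on the log2 scale) and RBBP7 (0.27), and 0 fell, against 8.77% of all tested genes called in either direction. With starvation 4 rose (CBX6, KDM6A and MEN1 among them) and 5 fell (CTCF, EZH2, PHF19, RBBP7 and SUZ12), against 9.1% higher and 9.67% lower of all tested genes. EZH2, the histone methyltransferase of Polycomb repressive complex 2, fell by 0.42 on the log2 scale and its partner PHF19 by 0.75. These calls are edgeR's, and DESeq2 called 0 of the 28 with estradiol and 5 with starvation, beside 1121 and 2381 of all 23375 tested genes. No gene of the list passed with a drug in edgeR or DESeq2, and 1, 1 and 2 had an unadjusted p under 0.05 with fulvestrant, raloxifene and tamoxifen. Its median log2 fold change was -0.02 with estradiol and -0.06 with starvation.

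Among non-coding genes of the clusters the most transcribed also lay in HOXC. Of 24 with a row of counts, 9 were tested, and the most transcribed per length were HOXC-AS3 at 31.6, HOXC-AS2 at 14.4 and HOTAIR at 7.42 CPM per kb. HOXC-AS3 overlaps HOXC10 and HOTAIR overlaps HOXC11. Whether the counting used strand is not known, so the values of HOXC-AS3 and HOTAIR may include reads of those genes. HOTAIR, a long RNA of the HOXC cluster that has been tied to Polycomb function, ran from 86.8 to 103 CPM over the 12 libraries and passed in no comparison with a vehicle. HOXB-AS1 fell with starvation, by 0.32 on the log2 scale (adjusted p = 0.027, edgeR), and DESeq2 called none of the list in that comparison. With estradiol 0 of the 9 passed in edgeR or DESeq2, with 3 at an unadjusted p under 0.05, and the median log2 fold change was 0.05. With fulvestrant, raloxifene and tamoxifen 0 passed in edgeR or DESeq2, with 1, 3 and 2 at an unadjusted p under 0.05.

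Of 27 flanking genes with a row of counts, 23 were tested, and those beside the weakly transcribed HOXD cluster, LNPK and MTX2, stood at 43.9 to 54.0 and 48.7 to 59.9 CPM, while EVX2, at the end of HOXD, had 13 counts over the 12 libraries. Beside HOXA, SKAP2 ran from 211 to 392 CPM and fell by 0.73 on the log2 scale with starvation (adjusted p = 2.2e-06, edgeR), and EVX1 had 14 counts. Of the flanking genes 1 rose and 0 fell with estradiol, the RNA-binding protein gene HNRNPA1 (0.24 on the log2 scale), and 4 rose (CALCOCO1, CBX1, SMUG1 and TAX1BP1) and 3 fell (ATP5MC1, HNRNPA1 and SKAP2) with starvation. The shares of all tested genes called in either direction were 8.77% with estradiol and 18.8% with starvation. DESeq2 called 0 of the 23 flanking genes with estradiol and 4 with starvation, beside 1121 and 2381 of all 23375 tested genes. The median log2 fold change of the flanking genes was -0.01 with estradiol and 0.06 with starvation. With fulvestrant, raloxifene and tamoxifen 0 passed in edgeR or DESeq2, with 1, 1 and 2 at an unadjusted p under 0.05. Of 13 ParaHox and other homeobox genes 2 were tested, MNX1 at 2.77 CPM per kb and MEOX2 at 0.00892, and none passed in any comparison with a vehicle by edgeR or DESeq2, with 0 at an unadjusted p under 0.05.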

How the data were processed

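For the 12 PRO-seq libraries the authors deposited raw counts by Ensembl gene ID. The submitters' processing notes name cutadapt 1.8.1, Bowtie2 2.4.4, SAMtools 1.9 and the hg38 build. The counting tool, its annotation, its strand setting and the part of a gene it counted were not stated in the sources used here. Which libraries were starved comes from the group names and the design text, since the labels' protocol describes complete medium. Symbols matched 60463 of 60605 IDs. The 142 others held 0.281% of counts, and 1195 IDs that repeated a symbol (0.0741% of counts) were left out.

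Counts were fitted in R 4.3.3 with edgeR 4.0.16 (filterByExpr, TMM, quasi-likelihood, 6 groups, 12 libraries, 23375 genes), with Benjamini-Hochberg adjustment and a threshold of 0.05. The fit was tested on simulated data. Standard errors are Wald errors of the fit, and intervals span 1.96 of them on each side. Levels are TMM-scaled CPM, per kilobase of RefSeq span between genes. The libraries of each group differed by more than sampling noise (chi-square per gene 1.20 to 2.36). Alternatives were RLE scaling, no scaling, no filter, DESeq2 1.42.0, a block on library number and each library left out.

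Values in every library are given for members past the threshold against a vehicle and for the 2 detected members of each cluster with the highest level per kilobase, and for HOXB3 and HOXC10, chosen after their values were seen. Members and lists were chosen with earlier results of these data known. Some genes of these lists are not reported here by name.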

Additional observations from a re-analysis of the deposited data

How the results depend on the processing

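Each result was recomputed with RLE size factors, with library totals, without the filter on low counts, with DESeq2, with library number as a replicate block and with each library of the compared groups left out. Of members called, estradiol gave 2 with DESeq2, raloxifene gave 2 without the filter and 0 with DESeq2, and without the filter fulvestrant gave 1 and tamoxifen 2. Of all 23375 tested genes DESeq2 called 1121 with estradiol and 83 with raloxifene. Without the filter 363 of 49739 genes passed with fulvestrant, 354 with raloxifene and 93 with tamoxifen. Called members numbered 1 to 2 with estradiol, 2 to 3 with starvation and 0 to 0 with raloxifene when one library was left out. The HOXC sum with estradiol passed with RLE size factors (0.18, adjusted p = 0.046). Same-numbered deviations correlated at 0.0467 to 0.362 over the 15 pairs of groups, over 0.1 in 10 of them and at 0.113 to 0.362 in the 6 pairs within complete medium. The labels give these as replicate numbers but do not say what libraries of the same number share. Over all groups not every correlation was over 0.1, so the main fit did not pair the libraries. Within complete medium every correlation was over 0.1, so the main fit may leave out a pairing in the drug comparisons. With the replicate block fulvestrant gave 1 member (HOXC6), raloxifene 4 (HOXB3, HOXC6, HOXC8 and HOXC9) and tamoxifen 2 (HOXB3 and HOXC6). Over all 23375 tested genes the block called 498, 490 and 172 in the same order, against 270, 133 and 12 in the main fit. With the block the HOXC sum passed at 0.17 with estradiol, -0.14 with starvation, -0.16 with fulvestrant, -0.19 with raloxifene and -0.20 with tamoxifen. No other vehicle comparison changed its count of members by over 1.5 times with the block.

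Signs changed as follows. With library totals the values were HOXC9 with estradiol (-0.0080), the HOXB sum with fulvestrant (0.00022) and the HOXD sum with raloxifene (0.0061). HOXC4 with raloxifene was -0.0016 with RLE size factors, -0.016 without the filter, -0.0019 with DESeq2 and -0.0089 with the block. With one library left out, log2 fold changes ranged with estradiol from -0.39 to 0.22 for HOXA6, -0.14 to 0.17 for HOXC9 and -0.23 to 0.36 for the HOXD sum. With starvation they ranged from -0.13 to 0.054 for the HOXA sum and -0.025 to 0.35 for the HOXD sum. With fulvestrant they ranged from -0.013 to 0.13 for HOXB2, -0.15 to 0.0097 for the HOXA sum, -0.059 to 0.012 for the HOXB sum and -0.087 to 0.26 for the HOXD sum. With raloxifene they ranged from -0.0088 to 0.34 for HOXA6, -0.012 to 0.40 for HOXB7, -0.15 to 0.05 for HOXC13, -0.076 to 0.078 for HOXC4, -1.05 to 0.31 for HOXD3 and -0.19 to 0.16 for the HOXD sum. With tamoxifen they ranged from -0.99 to 0.21 for HOXA11, -0.073 to 0.13 for HOXB7, -0.035 to 0.079 for HOXC13 and -0.16 to 0.053 for HOXC4. Average cluster shares per kilobase were 27.8% for HOXB, 68.6% for HOXC and 0.966% for HOXD, and over members without overlap 79.1% for HOXC and 2.42% for HOXD. The cause of these shifts was not tested. Detected members numbered 20 to 24 under the other definitions of detection.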
